A study of Arabidopsis thaliana with 12 samples.

Results

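The tau and phi classes of glutathione S-transferases were followed across 12 Arabidopsis thaliana libraries. The members are the tau genes GSTU1 to GSTU28 and the phi genes GSTF2 to GSTF11, GSTF13 and GSTF14, matched by locus identifier. This gave 40 of the 33602 gene models in the deposited tables, 28 tau and 12 phi. Total RNA was depleted of ribosomal RNA and sequenced with a stranded single-end kit, and the labels give the tissue of each library as flower bud, rosette and stem, of soil-grown plants at Boyes stage 5.10. There were 4 groups of 3 libraries: plants labelled as having a T-DNA insertion in DYW2 on both chromosomes (homozygous) or on 1 (heterozygous), and plants with an insertion in NUWA, also called OTP100, in the same 2 states. The sources conflict on the controls: titles and genotype field call them heterozygous, while the deposited files are named WT for the same 6 libraries. They are called heterozygous here, and whether they carried a mutant allele was not tested. The nights lasted 8 h at 18 °C and the days 16 h at 20 °C, at 60% hygrometry. DYW2 and NUWA encode pentatricopeptide repeat proteins that act in RNA editing in mitochondria and plastids.

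Glutathione S-transferases join the tripeptide glutathione to electrophilic compounds, such as herbicides and oxidized lipids, which marks them for transport into the vacuole. Some also carry ligands without converting them. The tau and phi classes are the large classes of plants, and many of their genes stand in tandem arrays made by gene duplication. In Arabidopsis many are known to respond to xenobiotics, salicylic acid, oxidized lipids and other stresses, in part through TGA transcription factors that bind TGACG sequences, with the GRAS protein SCL14.

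The libraries held 13329334 to 97804029 counted reads, and 9379319 to 33690734 of these fell in nuclear genes. Plastid genes took 26.6 to 32.5% of the counts in libraries labelled dyw2 homozygous and 57.2 to 66.9% in the other 9. Groups follow the sample titles. The genotype field disagrees with the title for 2 libraries: replicate 2 of dyw2 homozygous and replicate 3 of nuwa homozygous each carry the other mutant's name there. Plastid genes took 31.1% of the counts in the former, between the 26.6 and 32.5% of the other libraries titled dyw2 homozygous. In the latter they took 60.6%, between the 60.3 and 66.9% of the other libraries titled nuwa homozygous. That value lies apart from the libraries titled dyw2 homozygous, but not from the heterozygous ones, at 57.2 to 65.2%. The plastid share thus cannot tell if the title nuwa homozygous is right for this library. Neither targeted gene had lower transcript levels in its homozygous libraries. DYW2 was called higher in the dyw2 comparison (log2 fold change 0.67, SE 0.18, edgeR adjusted p = 0.00561) and the nuwa comparison (1.04, SE 0.18, edgeR adjusted p = 0.0148). NUWA was called higher in the dyw2 comparison (2.02, SE 0.36, edgeR adjusted p = 0.00048) and not called in the nuwa comparison (0.81, SE 0.38, edgeR adjusted p = 0.269). DYW2 had 9.5 to 11 normalized CPM in libraries labelled dyw2 homozygous, against 5.57 to 7.08 in those labelled dyw2 heterozygous, and NUWA had 0.761 to 1.34 in libraries labelled nuwa homozygous, against 0.351 to 0.905 in those labelled nuwa heterozygous. Normalized CPM are counts scaled to the library total, itself corrected for composition by TMM in edgeR. The labelled tissues were checked by their markers. All 13 leaf photosynthesis markers were called lower in the dyw2 comparison, and their summed level was 3966 to 6673 normalized CPM in libraries labelled dyw2 homozygous, against 34844 to 48351 in those labelled dyw2 heterozygous. Of 18 flower bud markers 14 were called lower, with sums of 9.59 to 14.9 and 5 to 8 markers at 0 counts in libraries labelled dyw2 homozygous, against sums of 45.9 to 178 and up to 6 at 0 in those labelled dyw2 heterozygous. Of 12 tested stem secondary wall markers 7 were called lower, with sums of 8.85 to 16.1 in libraries labelled dyw2 homozygous, against 18.0 to 36.4 in those labelled dyw2 heterozygous. The part of these markers in the results was not tested.

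In the libraries labelled dyw2 homozygous most of these genes differed from those labelled dyw2 heterozygous, and they moved both ways. Of the 36 members that passed the filter on low counts, 18 were called higher and 12 lower at an adjusted p under 0.05 (edgeR quasi-likelihood F-test). Among all 21213 genes tested, 30.1% were called higher and 32.8% lower, or 62.9% in either direction. The tau class had 13 members higher, 9 lower and 4 not called, and the phi class had 5 higher, 3 lower and 2 not called. Values did not overlap between the groups for 30 members, against 70.8% of all genes tested. GSTU2, GSTU12, GSTU15 and GSTU25 passed the filter through the dyw2 homozygous group alone, so they had to come out higher and apart. Among the 32 that reached the filter level in several groups, 14 were higher, 12 lower and 6 not called. Their values did not overlap for 26, and their median log2 fold change was 0.30, against -0.05 over all genes. GSTU3, GSTU11 and GSTF5, all called higher, are among the 32. They reached the filter level in 5, 5 and 4 libraries, every dyw2 homozygous one included. They too would not have passed without that group, so their direction was not free. In pooled tissue, fewer cells of a type and less RNA per cell cannot be told apart. With the groups of the genotype field in place of the titles, no member was called (edgeR; 18 at an unadjusted p under 0.05), nor was any other gene tested (5346 of 21213 at an unadjusted p under 0.05).

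**Figure D1:**
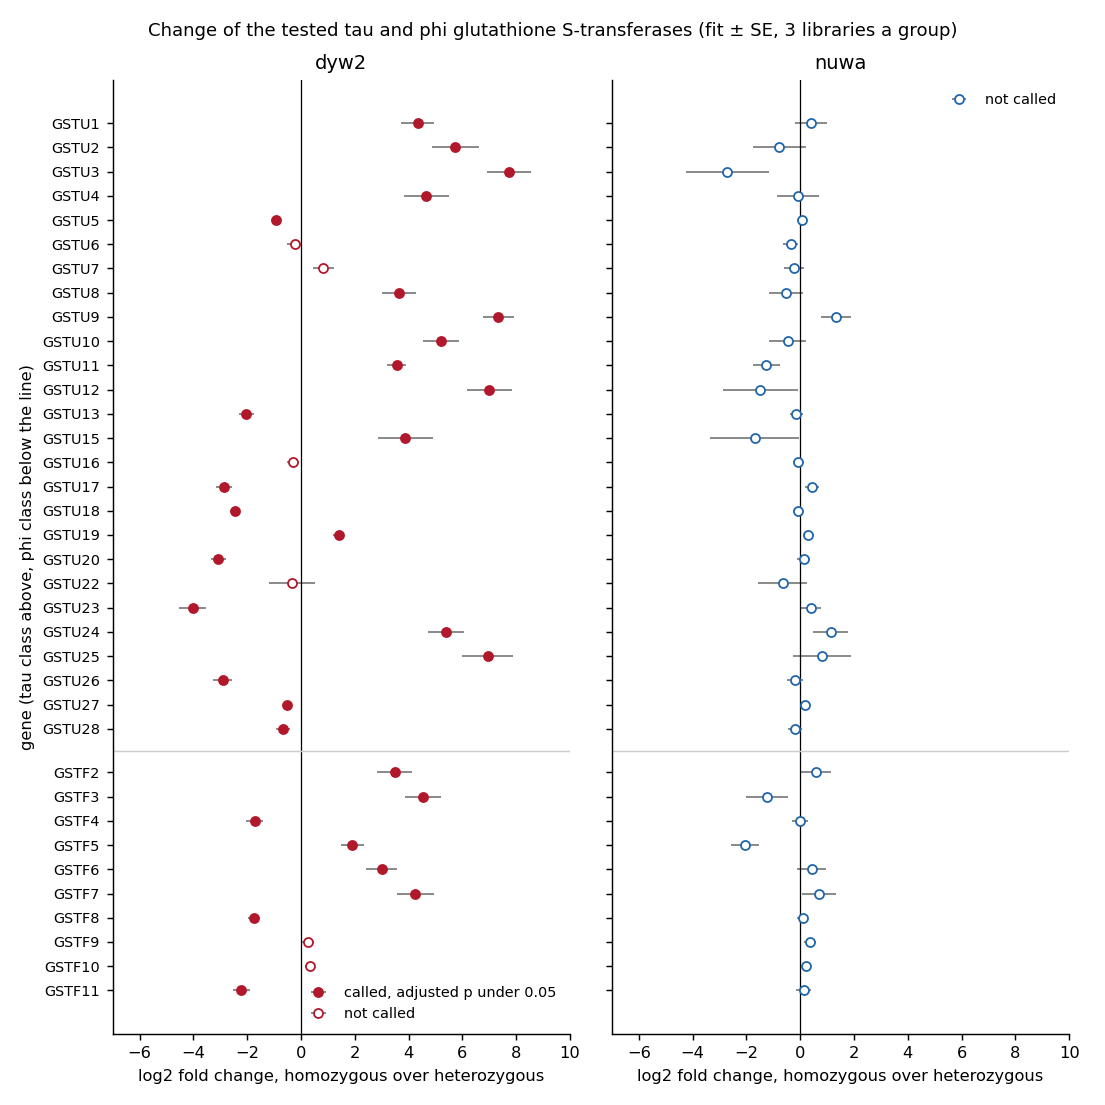
Log2 fold change of each tested member, homozygous over heterozygous, with a standard error derived from the edgeR F statistic, for dyw2 on the left and nuwa on the right. Filled points are called at an adjusted p under 0.05. For dyw2 the fitted values run between -4.03 (GSTU23) and 7.73 (GSTU3), while no member is called for nuwa.

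Counts of the 40 genes together made up 1.52 to 1.96% of nuclear gene counts in libraries labelled dyw2 homozygous, against 0.215 to 0.321% in those labelled dyw2 heterozygous. They made up 0.260 to 0.355% in libraries labelled nuwa homozygous and 0.181 to 0.300% in those labelled nuwa heterozygous. Most of the higher share lay in the phi class. As CPM of all counted reads, the phi genes summed to 10007 ± 1480 in libraries labelled dyw2 homozygous, against 574 ± 127 in those labelled dyw2 heterozygous (SD, n = 3 each). The tau genes summed to 1650 ± 274 in libraries labelled dyw2 homozygous, against 429 ± 49.4 in those labelled dyw2 heterozygous (SD, n = 3 each). These are ratios of 17.4 for phi and 3.85 for tau. As CPM of nuclear reads, which leaves the plastid share aside, the ratios were 9.83 for phi and 2.19 for tau. The phi genes GSTF2, GSTF6 and GSTF7 alone held 79.5 to 82.4% of the members' counts in libraries labelled dyw2 homozygous, against 23.2 to 35.5% in those labelled dyw2 heterozygous.

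**Figure D2:**
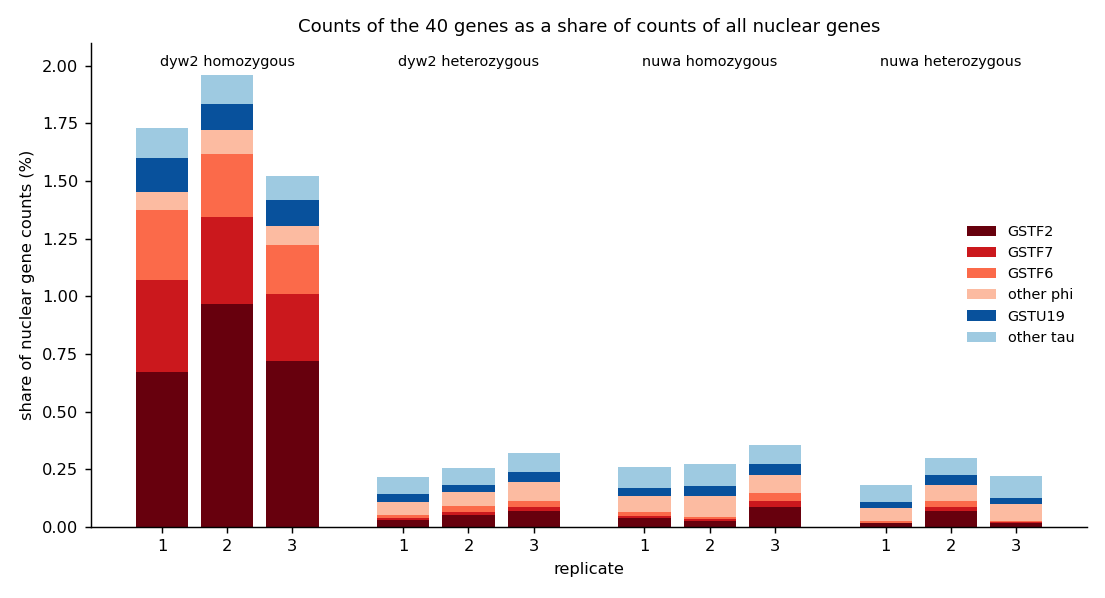
Share of nuclear gene counts taken by the 40 genes in each library, stacked by gene, with the 3 replicates of each group side by side. The 3 dyw2 homozygous libraries stand at 1.52 to 1.96%, and GSTF2, GSTF7 and GSTF6 fill most of each bar. The other 9 libraries lie between 0.181 and 0.355%.

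GSTF2 (AT4G02520, chromosome 4, 1110343 to 1112033, minus strand, 3 exons; TAIR10.1 here and below) encodes an enzyme known to bind auxin and other indole ligands. It had the highest mean level of all members per kilobase of gene model, 793 normalized CPM per kb over the 12 libraries. Its values were 2122, 3108 and 2303 normalized CPM in libraries labelled dyw2 homozygous, against 122, 242 and 307 in those labelled dyw2 heterozygous, and 208, 133 and 378 in libraries labelled nuwa homozygous, against 71.5, 339 and 73.8 in those labelled nuwa heterozygous. Every dyw2 homozygous library was far above all 9 others, and the nuwa groups overlapped. The dyw2 log2 fold change was 3.49 (SE 0.65, edgeR adjusted p = 0.000635). Another annotated gene overlaps 11 members: on the opposite strand GSTF2, GSTF4, GSTF10, GSTF11, GSTU2, GSTU6 and GSTU7, on the same strand GSTF8, GSTU17 and GSTU18, and on both GSTU10. The sources used here do not say if the strand entered the counting, so their values are uncertain where reads could be shared. These overlaps are those of the RefSeq gene bounds. Only 4 of the 40 counted models have the length of the RefSeq transcript, so overlaps between the counted models can differ.

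GSTF7 (AT1G02920, chromosome 1, 658578 to 659980, minus strand) and GSTF6 (AT1G02930, chromosome 1, 661088 to 662475, minus strand) are tandem neighbours. GSTF6 has been linked to the synthesis of camalexin, the main phytoalexin of Arabidopsis. GSTF7 had 1255, 1216 and 937 normalized CPM in libraries labelled dyw2 homozygous, against 35.2, 73.8 and 69.8 in those labelled dyw2 heterozygous. The nuwa values of GSTF7 were 49.8, 24.7 and 111 in libraries labelled homozygous, against 15.5, 78.4 and 20.5 in those labelled heterozygous. The dyw2 groups stood far apart and the nuwa groups overlapped. GSTF6 had 965, 867 and 677 normalized CPM in libraries labelled dyw2 homozygous, against 57.3, 121 and 133 in those labelled dyw2 heterozygous. In the nuwa libraries GSTF6 had 84.5, 47.2 and 152 in those labelled homozygous, against 36.6, 136 and 38.4 in those labelled heterozygous. Again only the dyw2 homozygous libraries stood apart. The dyw2 log2 fold changes were 4.25 for GSTF7 (SE 0.70, edgeR adjusted p = 0.000269) and 3.01 for GSTF6 (SE 0.58, edgeR adjusted p = 0.000813). The order of the pair turned over: GSTF7 had 1.30 to 1.40 counts for each GSTF6 count in libraries labelled dyw2 homozygous, against 0.524 to 0.613 in those labelled dyw2 heterozygous, 0.523 to 0.730 in libraries labelled nuwa homozygous and 0.423 to 0.575 in those labelled nuwa heterozygous. The libraries labelled dyw2 homozygous were the only ones with more GSTF7 than GSTF6 counts.

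GSTF6 and GSTF7 are the most alike of all member pairs in their coding sequence, identical at 94.7% of 627 aligned bases, followed by GSTF2 and GSTF3 at 94.5% of 639. Because reads with equally good alignments elsewhere had been removed before counting, reads from stretches that both copies share are missing, and 9.41% of the 50-base words of GSTF6 and 9.19% of those of GSTF7 occur elsewhere in the genome, against 0% for 37 members. The stretches below, 120 bases from the TAIR10.1 RefSeq coding sequences, show where the copies of each pair can be told apart. Capitals mark the 13 bases at which GSTF6 and GSTF7 differ (coding bases 147 to 266) and the 16 at which GSTF2 and GSTF3 differ (coding bases 261 to 380).
GSTF6: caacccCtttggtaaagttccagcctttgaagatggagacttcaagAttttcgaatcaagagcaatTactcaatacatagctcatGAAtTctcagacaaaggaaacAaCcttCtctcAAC
GSTF7: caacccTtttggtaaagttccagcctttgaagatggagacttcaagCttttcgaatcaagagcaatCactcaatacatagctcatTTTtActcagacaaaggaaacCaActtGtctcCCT
GSTF2: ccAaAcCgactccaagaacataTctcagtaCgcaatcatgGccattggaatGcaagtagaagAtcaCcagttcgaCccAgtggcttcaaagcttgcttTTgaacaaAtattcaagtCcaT
GSTF3: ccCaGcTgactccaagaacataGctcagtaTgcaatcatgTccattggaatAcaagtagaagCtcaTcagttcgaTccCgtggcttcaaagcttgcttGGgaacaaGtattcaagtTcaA

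GSTF3 (AT2G02930, chromosome 2, 851156 to 852321, minus strand) was a rare transcript beside its near copy. It had 6.93, 7.45 and 5.46 normalized CPM in libraries labelled dyw2 homozygous, against 0.112, 0.389 and 0.346 in those labelled dyw2 heterozygous, and 0.119, 0.201 and 0.166 in libraries labelled nuwa homozygous, against 0.110, 0.877 and 0.104 in those labelled nuwa heterozygous. Only the dyw2 groups were apart, with a log2 fold change of 4.53 (SE 0.68, edgeR adjusted p = 0.000137). Of the counts of GSTF2 and GSTF3 together, GSTF3 held 0.237 to 0.326% in libraries labelled dyw2 homozygous, against 0.0921 to 0.16% in those labelled dyw2 heterozygous. It held 0.0441 to 0.151% in libraries labelled nuwa homozygous, against 0.141 to 0.258% in those labelled nuwa heterozygous, whose replicate 2 lay inside the dyw2 homozygous range. Whether reads of GSTF2 were counted for GSTF3 was not tested. GSTF5, at 0.405 ± 0.0898 normalized CPM in libraries labelled dyw2 homozygous, against 0.107 ± 0.0295 in those labelled dyw2 heterozygous (SD, n = 3 each), also rose, by 1.90 on the log2 scale (SE 0.43, edgeR adjusted p = 0.00241).

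Among the phi genes that fell, GSTF11 (AT3G03190, chromosome 3, 734892 to 735987, plus strand) has a known part in the synthesis of aliphatic glucosinolates, the mustard oil precursors. It had 0.437, 1.01 and 1.0 normalized CPM in libraries labelled dyw2 homozygous, against 3.88, 3.70 and 4.02 in those labelled dyw2 heterozygous, and 5.54, 6.61 and 4.31 in libraries labelled nuwa homozygous, against 3.85, 4.11 and 6.98 in those labelled nuwa heterozygous. Every dyw2 homozygous value was below all others. Its log2 fold change was -2.22 (SE 0.31, edgeR adjusted p = 9.47e-05). GSTF8, whose promoter is a known reporter of salicylic acid and oxidative stress, averaged 29.1 ± 0.557 in libraries labelled dyw2 homozygous, against 98.2 ± 20.9 in those labelled dyw2 heterozygous (SD, n = 3 each), a log2 fold change of -1.76 (SE 0.22, edgeR adjusted p = 4.08e-05). GSTF4, the fourth gene of the array with GSTF5, GSTF6 and GSTF7, fell by 1.73 on the log2 scale (SE 0.33, edgeR adjusted p = 0.000823) while those 3 rose. GSTF9 and GSTF10, the other phi tandem pair, were not called: GSTF9 had 171 to 256.4 normalized CPM in libraries labelled dyw2 homozygous, against 146 to 200 in those labelled dyw2 heterozygous, and GSTF10 had 36.5 to 41.9 in libraries labelled dyw2 homozygous, against 23.1 to 37.3 in those labelled dyw2 heterozygous. Leaving out dyw2 heterozygous replicate 3 brought GSTF10 to a log2 fold change of 0.48 with an edgeR adjusted p of 0.0442.

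The largest tau array, GSTU1 to GSTU7, spans 14603 bases of chromosome 2 (12617936 to 12632538), with all 7 genes on the minus strand. GSTU1, GSTU2, GSTU3 and GSTU4 rose, GSTU5 fell, and GSTU6 and GSTU7 were not called. GSTU3 had the largest fitted rise of all members. Its values were 29.6, 25.8 and 14.5 normalized CPM in libraries labelled dyw2 homozygous, against 0.187, 0.0185 and 0.115 in those labelled dyw2 heterozygous, and 0, 0.0335 and 0.0476 in libraries labelled nuwa homozygous, against 0.0220, 0.482 and 0 in those labelled nuwa heterozygous. Of the other 9 libraries 6 had 3 counts or fewer, and the highest had 33 counts (nuwa heterozygous replicate 2), far below each of the 3 labelled dyw2 homozygous. The log2 fold change was 7.73 (SE 0.83, edgeR adjusted p = 1.13e-05), or 8.33 without dyw2 heterozygous replicate 1.

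GSTU4 had 74.8, 92.6 and 51.6 normalized CPM in libraries labelled dyw2 homozygous, against 2.60, 2.72 and 3.31 in those labelled dyw2 heterozygous, and 1.02, 2.51 and 4.35 in libraries labelled nuwa homozygous, against 0.616, 7.03 and 0.575 in those labelled nuwa heterozygous. GSTU1 had 24.0, 23.0 and 20.0 in libraries labelled dyw2 homozygous, against 0.749, 0.741 and 1.80 in those labelled dyw2 heterozygous, and 1.81, 2.65 and 1.43 in libraries labelled nuwa homozygous, against 0.374, 3.10 and 0.818 in those labelled nuwa heterozygous. GSTU2 had 2.19, 1.68 and 1.34 in libraries labelled dyw2 homozygous, against 0, 0.0741 and 0.0165 in those labelled dyw2 heterozygous, and 0, 0.101 and 0.0714 in libraries labelled nuwa homozygous, against 0.0220, 0.190 and 0.0522 in those labelled nuwa heterozygous. In all 3 genes the dyw2 homozygous libraries lay above every other library, and the nuwa groups overlapped. The dyw2 log2 fold changes were 4.66 for GSTU4 (SE 0.85), 4.33 for GSTU1 (SE 0.62) and 5.74 for GSTU2 (SE 0.87), with edgeR adjusted p of 0.000563, 9.48e-05 and 0.000149. GSTU2, with 5 counts over its dyw2 heterozygous group, came to 7.24 without replicate 2 of that group.

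GSTU5, next to GSTU4, was the member of this array with the highest level in the heterozygous libraries. It had 38.3, 39.2 and 34.5 normalized CPM in libraries labelled dyw2 homozygous, against 67.6, 75.4 and 72.7 in those labelled dyw2 heterozygous, and 93.4, 74.6 and 50.3 in libraries labelled nuwa homozygous, against 74.1, 67.8 and 67.4 in those labelled nuwa heterozygous. The dyw2 groups did not overlap, and GSTU5 fell by 0.95 on the log2 scale (SE 0.19, edgeR adjusted p = 0.000932), so that neighbouring genes of the array moved in opposite directions. GSTU6 had a log2 fold change of -0.24 (SE 0.28) and GSTU7 one of 0.84 (SE 0.39), with edgeR adjusted p of 0.472 and 0.0768. Without dyw2 homozygous replicate 2, GSTU7 was called (1.12, edgeR adjusted p = 0.0282).

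Promoters of the 3 members with the largest fitted rise, and of GSTU5 as a falling neighbour of GSTU3, are shown so that members moving differently can be compared base by base. Each is the 300 bases before the RefSeq transcript start on the gene's strand (TAIR10.1): GSTU3 chr2:12629641-12629940, GSTU9 chr5:25089627-25089926, GSTU12 chr1:26335631-26335930 and GSTU5 chr2:12625791-12626090, all minus strand. Capitals mark TGACG on either strand, which reads CGTCA on the other.
GSTU3: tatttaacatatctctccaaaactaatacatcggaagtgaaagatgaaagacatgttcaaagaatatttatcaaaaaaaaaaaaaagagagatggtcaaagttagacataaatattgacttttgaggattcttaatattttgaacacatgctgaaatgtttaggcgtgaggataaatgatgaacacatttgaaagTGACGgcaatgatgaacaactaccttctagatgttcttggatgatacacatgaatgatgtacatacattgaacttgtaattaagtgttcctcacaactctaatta
GSTU9: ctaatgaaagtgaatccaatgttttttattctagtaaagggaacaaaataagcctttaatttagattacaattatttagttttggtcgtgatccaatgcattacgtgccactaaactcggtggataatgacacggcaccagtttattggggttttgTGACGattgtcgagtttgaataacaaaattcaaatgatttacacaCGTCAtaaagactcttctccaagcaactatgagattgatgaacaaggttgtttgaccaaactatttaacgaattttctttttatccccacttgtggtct
GSTU12: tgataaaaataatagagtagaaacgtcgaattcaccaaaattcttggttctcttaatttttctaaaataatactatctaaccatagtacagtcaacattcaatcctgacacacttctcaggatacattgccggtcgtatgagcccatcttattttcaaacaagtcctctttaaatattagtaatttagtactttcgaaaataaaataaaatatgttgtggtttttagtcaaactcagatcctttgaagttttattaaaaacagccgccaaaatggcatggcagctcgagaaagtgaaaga
GSTU5: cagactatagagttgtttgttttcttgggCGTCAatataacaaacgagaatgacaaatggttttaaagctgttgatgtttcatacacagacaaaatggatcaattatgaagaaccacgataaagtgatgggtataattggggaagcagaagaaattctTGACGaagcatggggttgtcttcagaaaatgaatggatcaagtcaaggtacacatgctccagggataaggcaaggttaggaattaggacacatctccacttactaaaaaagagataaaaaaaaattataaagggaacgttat

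GSTU3 holds 1 such match, GSTU9 holds 2, GSTU12 holds none, and the falling GSTU5 holds 2. The GSTU5 window overlaps the annotated gene AT2G29452. Over all members, TGACG on either strand occurred in 16 of 40 such windows (40%), against 21.3% of the 27443 protein-coding genes. By direction it occurred in 8 of the 18 members that rose, 4 of the 12 that fell and 4 of the other 10. Pairs of TGACG separated by 7 bases, the spacing of the as-1 element, in any orientation, occurred in the windows of GSTU1, which rose, and GSTU7, which was not called, and in 0.109% of all windows. The mitochondrial dysfunction motif, bound by the mitochondrial stress factor ANAC017 and its relatives, occurred in 1 member, GSTF4, and in 1.37% of all windows. These are matches of letters in one window.

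Outside that array, GSTU9 (AT5G62480, chromosome 5, 25088527 to 25089626, minus strand), a gene without a tandem neighbour, had 91.4, 76.6 and 65.1 normalized CPM in libraries labelled dyw2 homozygous, against 0.468, 0.518 and 0.445 in those labelled dyw2 heterozygous, and 0.999, 0.838 and 1.78 in libraries labelled nuwa homozygous, against 0.0660, 1.01 and 0.296 in those labelled nuwa heterozygous. Its dyw2 homozygous libraries were far above the other 9, and the nuwa groups overlapped. The rise was 7.34 on the log2 scale (SE 0.58, edgeR adjusted p = 1.46e-06). GSTU10, also single, had 40.8, 29.7 and 26.2 in libraries labelled dyw2 homozygous, against 0.824, 0.648 and 1.14 in those labelled dyw2 heterozygous, and 0.523, 1.24 and 1.05 in libraries labelled nuwa homozygous, against 0.132, 2.67 and 0.888 in those labelled nuwa heterozygous. The same 3 libraries stood apart, and GSTU10 rose by 5.20 on the log2 scale (SE 0.67, edgeR adjusted p = 4.81e-05). Annotated genes on both strands overlap GSTU10.

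GSTU24 and GSTU25 encode enzymes known to conjugate the explosive TNT, and they form an array with GSTU26 (chromosome 1, 5869543 to 5876620, plus strand). GSTU24 had 28.4, 30.0 and 24.1 normalized CPM in libraries labelled dyw2 homozygous, against 0.375, 0.444 and 1.09 in those labelled dyw2 heterozygous, and 0.571, 2.05 and 2.24 in libraries labelled nuwa homozygous, against 0.242, 1.52 and 0.331 in those labelled nuwa heterozygous. Again the dyw2 homozygous libraries alone were high. GSTU24 rose by 5.41 on the log2 scale (SE 0.67, edgeR adjusted p = 3.35e-05), or by 6.06 without dyw2 heterozygous replicate 3. GSTU25 had 2.29, 1.44 and 1.67 in libraries labelled dyw2 homozygous, against 0.0375, 0 and 0 in those labelled dyw2 heterozygous, and 0, 0.0671 and 0.119 in libraries labelled nuwa homozygous, against 0.0220, 0.0731 and 0 in those labelled nuwa heterozygous. The gene was barely detected outside the libraries labelled dyw2 homozygous. That is 196 against 2 counts over the dyw2 groups, a ratio of 145 per library size, with an exact 95% counting interval of 39.7 to 1209. The third gene went the other way. GSTU26 had 0.202, 0.257 and 0.425 normalized CPM in libraries labelled dyw2 homozygous, against 2.23, 1.57 and 2.85 in those labelled dyw2 heterozygous, and 1.38, 2.51 and 2.26 in libraries labelled nuwa homozygous, against 2.88, 2.06 and 2.09 in those labelled nuwa heterozygous. All 3 dyw2 homozygous values were below all others. GSTU26 fell by 2.91 on the log2 scale (SE 0.36, edgeR adjusted p = 3.10e-05). GSTU25 and GSTU26 are the tested pair of one array with the widest gap between fold changes. The rise of GSTU25 was fixed by its passage of the filter through the dyw2 homozygous group alone. Its fitted size, and so the gap, depends on the prior count.

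GSTU12 and GSTU11 are neighbours on chromosome 1 (26334250 to 26338818, minus strand), and both rose. GSTU12 had 2.73, 1.76 and 1.15 normalized CPM in libraries labelled dyw2 homozygous, against 0.0375, 0 and 0 in those labelled dyw2 heterozygous, and 0, 0 and 0.0238 in libraries labelled nuwa homozygous, against 0.0440, 0.0438 and 0 in those labelled nuwa heterozygous. Outside the dyw2 homozygous group no library had more than 3 counts. The 208 against 2 counts of the dyw2 groups give a ratio of 154 (exact 95% counting interval 42.2 to 1282). GSTU11 had 3.10, 2.61 and 3.85 in libraries labelled dyw2 homozygous, against 0.319, 0.222 and 0.264 in those labelled dyw2 heterozygous, and 0.0714, 0.0671 and 0.0238 in libraries labelled nuwa homozygous, against 0.0660, 0.190 and 0.122 in those labelled nuwa heterozygous. Its dyw2 libraries did not overlap, with a log2 fold change of 3.56 (SE 0.35, edgeR adjusted p = 5.64e-06). GSTU15, with 14 against 1 counts, had a ratio of 20.8 (exact 95% counting interval 3.16 to 878), and it lost its call under DESeq2 (adjusted p = 0.0543). For GSTU12, GSTU25 and GSTU15 every dyw2 heterozygous count lay in replicate 1. These intervals cover counting error only, over the summed reads of each group. GSTU8, a single gene, rose by 3.64 (SE 0.63, edgeR adjusted p = 0.000423).

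**Figure D3:**
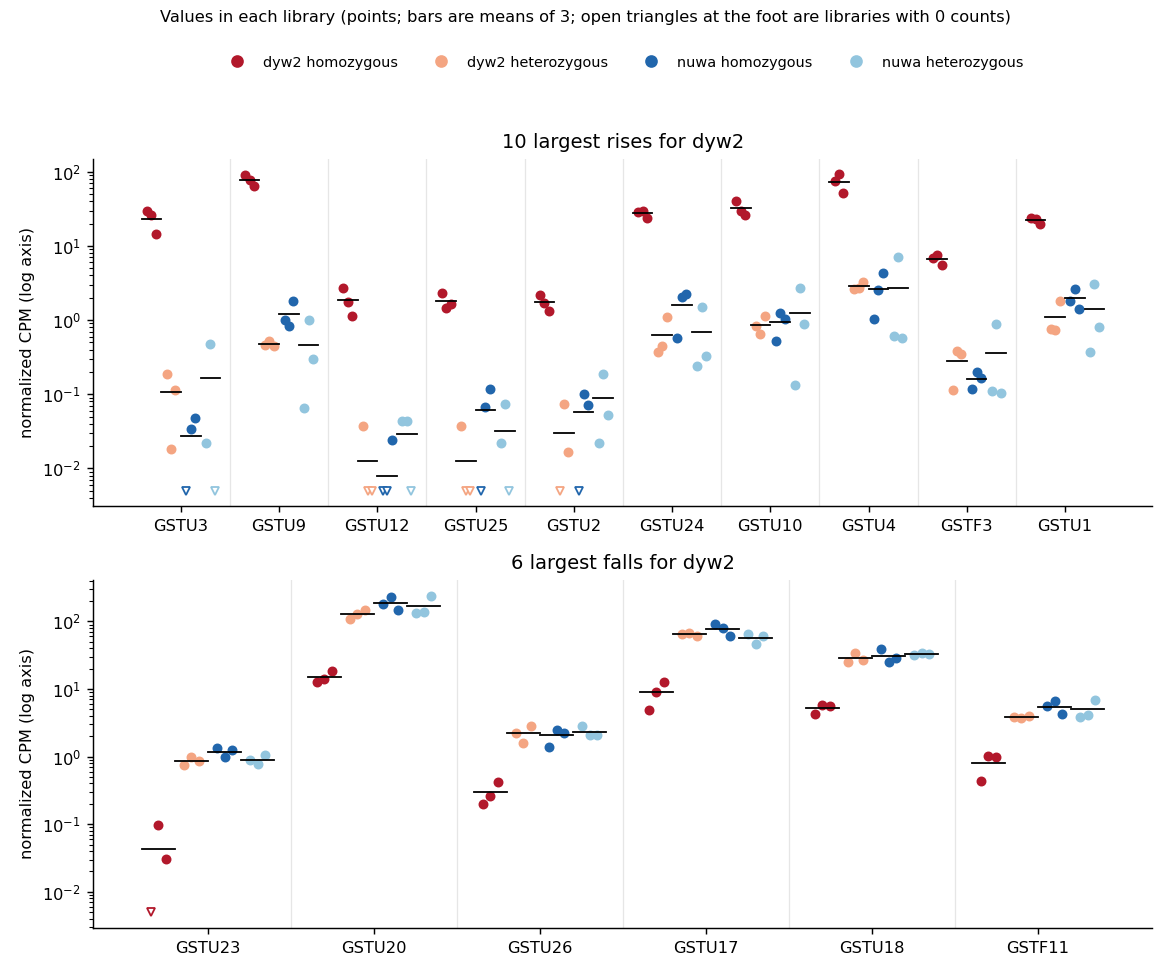
Normalized CPM on a log axis in each library for the 10 members that rose most and the 6 that fell most among those called for dyw2, by group. Bars are means of 3 libraries and open triangles are libraries with 0 counts. For all 16 genes the 3 dyw2 homozygous points lie clear of the dyw2 heterozygous ones, while the nuwa points overlap.

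The array of GSTU19 to GSTU23 (chromosome 1, 29467412 to 29488007, minus strand) holds the tau genes of highest level per kilobase. GSTU19, a safener-inducible enzyme with high activity towards model substrates, had 463, 365 and 370 normalized CPM in libraries labelled dyw2 homozygous, against 138, 130 and 185 in those labelled dyw2 heterozygous, and 178, 200 and 218 in libraries labelled nuwa homozygous, against 133, 213 and 140 in those labelled nuwa heterozygous. All dyw2 homozygous values were above all others, by 1.40 on the log2 scale against the dyw2 heterozygous libraries (SE 0.21, edgeR adjusted p = 0.000142). GSTU20, its neighbour, known as the FIN219-interacting protein FIP1 of jasmonate signalling and also linked to glucosinolate synthesis, went down. It had 12.8, 14.2 and 18.6 in libraries labelled dyw2 homozygous, against 107, 130 and 145 in those labelled dyw2 heterozygous, and 181, 227 and 150 in libraries labelled nuwa homozygous, against 135, 139 and 239 in those labelled nuwa heterozygous. The libraries labelled dyw2 homozygous lay below the other 9. The log2 fold change was -3.07 (SE 0.27, edgeR adjusted p = 2.71e-06). GSTU23 had 0, 0.0988 and 0.0303 in libraries labelled dyw2 homozygous, against 0.749, 0.981 and 0.874 in those labelled dyw2 heterozygous, and 1.33, 0.972 and 1.26 in libraries labelled nuwa homozygous, against 0.880, 0.789 and 1.04 in those labelled nuwa heterozygous. Here too the dyw2 homozygous libraries were the lowest. With 6 counts left over the dyw2 homozygous group its log2 fold change was -4.03 (SE 0.50, edgeR adjusted p = 3.63e-05), or -5.55 without dyw2 homozygous replicate 2. GSTU22, between them, had 10 counts over the dyw2 homozygous and 19 over the dyw2 heterozygous group and was not called (-0.34, SE 0.85, edgeR adjusted p = 0.748).

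GSTU17 and GSTU18 are neighbours on chromosome 1 (3395551 to 3398358, minus strand) whose annotated transcripts overlap on the same strand. GSTU17, also called ERD9, is known from drought and light responses. It had 4.84, 9.19 and 12.6 normalized CPM in libraries labelled dyw2 homozygous, against 66.3, 67.5 and 61.3 in those labelled dyw2 heterozygous, and 92.7, 80.5 and 61.7 in libraries labelled nuwa homozygous, against 66.0, 46.2 and 61.2 in those labelled nuwa heterozygous. GSTU18 had 4.27, 5.73 and 5.58 in libraries labelled dyw2 homozygous, against 25.3, 33.9 and 27.1 in those labelled dyw2 heterozygous, and 38.9, 25.2 and 29.2 in libraries labelled nuwa homozygous, against 32.1, 33.6 and 32.8 in those labelled nuwa heterozygous. Both were low in the 3 libraries labelled dyw2 homozygous alone. They fell by 2.87 (SE 0.30) and 2.46 (SE 0.19) on the log2 scale, with edgeR adjusted p of 8.89e-06 and 1.23e-06. GSTU13, which acts in the metabolism of indole glucosinolates in pathogen defence, averaged 2.26 ± 0.623 in libraries labelled dyw2 homozygous, against 9.27 ± 2.81 in those labelled dyw2 heterozygous (SD, n = 3 each), a log2 fold change of -2.02 (SE 0.27, edgeR adjusted p = 5.18e-05). Smaller falls were called for GSTU27 (-0.53, SE 0.14, edgeR adjusted p = 0.00773) and GSTU28 (-0.66, SE 0.26, edgeR adjusted p = 0.0416). The GSTU28 call was lost without any 1 of the dyw2 homozygous libraries, without dyw2 heterozygous replicate 2 or 3, or without nuwa heterozygous replicate 3, where its edgeR adjusted p was between 0.0523 and 0.161. GSTU16 was not called (-0.30, SE 0.21, edgeR adjusted p = 0.228).

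Of the 4 members that did not pass the filter, GSTU14 had 0 counts in 11 libraries and 2 counts in nuwa heterozygous replicate 3. GSTU21 had 6 counts over all libraries, GSTF13 had 7 and GSTF14 had 6, none in more than 6 libraries. A count of 0 in a library allows a level of up to 0.0438 to 0.101 normalized CPM, taking 3 counts as the limit, so these genes were not detectable at this depth in most libraries. GSTF14 had 4 counts over the dyw2 homozygous group and 1 over the dyw2 heterozygous group.

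The 9 tandem arrays hold 29 of the 40 genes. In 4 of the 9 arrays, GSTU1 to GSTU7, GSTU19 to GSTU23, GSTU24 to GSTU26 and GSTF4 to GSTF7, some genes rose and others fell. GSTU11 and GSTU12 both rose, GSTU17 and GSTU18 both fell, and GSTF9 and GSTF10 were both not called. GSTU15 rose beside GSTU16, which was not called, and GSTU13 fell beside GSTU14, which was not tested. GSTU12 and GSTU15 passed the filter through the dyw2 homozygous group alone, and GSTU11 would not have passed without it. Their direction was thus not free, and GSTU15 lost its call under DESeq2 (adjusted p = 0.0543). The direction of GSTU2, GSTU3, GSTU25 and GSTF5, in arrays that moved both ways, was not free either. Over pairs of tau genes in one array the median gap between log2 fold changes for dyw2 was 3.69 (33 tested pairs), against 3.90 for tau pairs elsewhere (292 pairs). Phi pairs gave 2.35 in one array (7 pairs), against 2.71 elsewhere (38 pairs). In coding sequence, tau pairs in one array were identical at a median of 74.8% of bases, against 61.1% for other tau pairs. Pairs share genes and are no replicates, and these medians are given with no test. The pairs include those of GSTU2, GSTU12, GSTU15 and GSTU25, whose rise was fixed by the filter. Of the 11 genes outside arrays, 9 were tested, of which 5 rose and 4 fell.

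**Figure D4:**
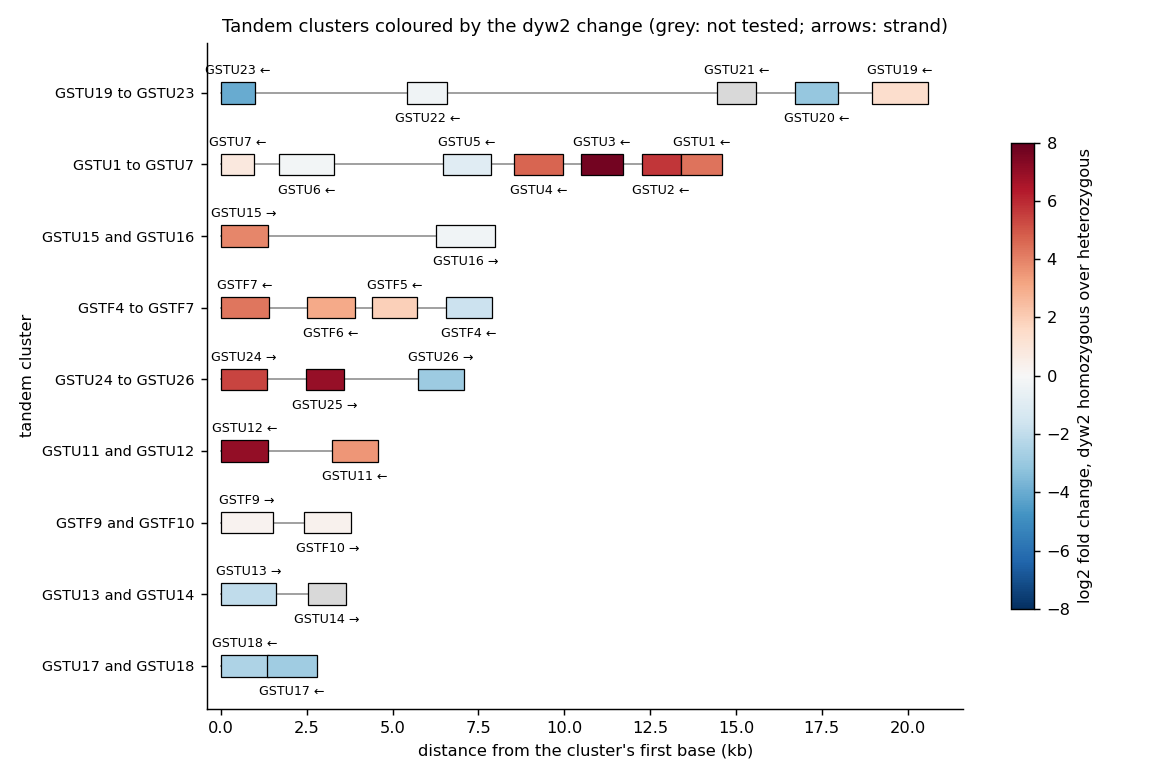
Members of the 9 tandem arrays, drawn to scale by distance from each array's first base in kb, coloured by the log2 fold change of dyw2 homozygous over heterozygous. Grey genes were not tested and arrows give the strand. Red (rising) and blue (falling) genes stand side by side in the arrays GSTU1 to GSTU7, GSTU19 to GSTU23, GSTU24 to GSTU26 and GSTF4 to GSTF7.

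In the nuwa comparison none of the 36 tested members was called, higher or lower (edgeR; 3 at an unadjusted p under 0.05; DESeq2 also called none, with 2 at an unadjusted p under 0.05). Among all genes, edgeR called 1.54% higher and 0.636% lower, or 2.18% in either direction, and put 4034 of 21213 at an unadjusted p under 0.05. DESeq2 called 848 of 22268 genes higher and 573 lower. The median log2 fold change of the members was -0.04, against -0.02 over all genes. GSTF5 came closest, and its groups did not overlap: it had 0.0714, 0.0335 and 0.0476 normalized CPM in libraries labelled nuwa homozygous, against 0.198, 0.146 and 0.331 in those labelled nuwa heterozygous (6 against 38 counts in all). Its log2 fold change was -2.05 (SE 0.51, edgeR adjusted p = 0.0659), opposite in sign to its dyw2 change. Single libraries stood high or low within their groups. Nuwa heterozygous replicate 2 was the highest of its 3 libraries for 15 of the 18 members that rose for dyw2. Nuwa homozygous replicate 3, whose labels disagree, was the highest of its 3 for 11. Among the dyw2 homozygous libraries, replicate 1 was the highest for 12 of these members and replicate 3 the lowest for 13. How often these libraries are the extreme ones over all genes was not counted. Without nuwa heterozygous replicate 2, GSTU9 was called higher for nuwa, with a log2 fold change of 2.66 (edgeR adjusted p = 0.0357), against 1.32 (SE 0.55, edgeR adjusted p = 0.227) with it. Flower bud markers summed to 12.1, 7.04 and 100.04 normalized CPM in libraries labelled nuwa homozygous, against 95.5 to 177 in those labelled nuwa heterozygous. The sum of 100.04 is that of nuwa homozygous replicate 3, whose labels disagree. Nuwa homozygous replicate 3 had a flower bud score of 1.85, against -3.13 and -3.1 in replicates 1 and 2. Its score lay within the 1.31 to 2.44 of the nuwa heterozygous libraries. With this score as a covariate, the outcome for nuwa was the same for all 36 members (edgeR). The part of these markers in the values was not tested otherwise.

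Whether the mutants' effects differed was tested as an interaction. The difference, dyw2 effect minus nuwa effect, was called for 28 of 36 members (17 higher, 11 lower), against 40.9% of all genes (19.2% higher, 21.7% lower; edgeR). GSTU2, GSTU12 and GSTU25 are among the 17, and their passage of the filter through the dyw2 homozygous group alone fixed that direction. Of the 32 members that reached the filter level in several groups, 14 were higher and 11 lower. The 14 include GSTU3, GSTU11 and GSTF5, which would not have passed without the dyw2 homozygous group. The smallest adjusted p were those of GSTU18 (-2.39 on the log2 scale, SE 0.25, edgeR adjusted p = 4.16e-05), GSTU20 (-3.19, SE 0.36, edgeR adjusted p = 5.31e-05), GSTU17 (-3.31, SE 0.40, edgeR adjusted p = 8.36e-05), GSTU11 (4.81, SE 0.60, edgeR adjusted p = 0.000102) and GSTU9 (6.02, SE 0.77, edgeR adjusted p = 0.000126). GSTU9 came to 4.68 without nuwa heterozygous replicate 2. Between libraries labelled dyw2 heterozygous and nuwa heterozygous edgeR called no member, with 2 at an unadjusted p under 0.05. DESeq2 called none either, with 1 at an unadjusted p under 0.05. Of all genes, edgeR called 0.132% (0.0283% higher, 0.104% lower) and put 1294 of 21213 at an unadjusted p under 0.05.

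Genes that work beside these enzymes were followed as lists, whose counts are read against the 30.1% of all genes called higher and 32.8% called lower for dyw2. Of 12 glutathione S-transferases of other classes, 4 rose and 4 fell in the dyw2 comparison, shares near those of all genes. GSTL1, of the lambda class, rose by 4.28 on the log2 scale (SE 0.53, edgeR adjusted p = 3.39e-05), while DHAR3, the plastid dehydroascorbate reductase, fell by 2.76 (SE 0.27, edgeR adjusted p = 5.80e-06). Of 10 genes of glutathione synthesis and reduction, 4 rose and 4 fell, again not far from all genes. GR1, the cytosolic glutathione reductase, averaged 82.2 ± 10.6 normalized CPM in libraries labelled dyw2 homozygous, against 42.3 ± 5.0 in those labelled dyw2 heterozygous (SD, n = 3 each). APR2, an enzyme of sulfate reduction, averaged 60.3 ± 4.87 in libraries labelled dyw2 homozygous, against 131 ± 26.4 in those labelled dyw2 heterozygous. Both differences passed the test (edgeR adjusted p = 0.00021 and 0.000823).

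Of 9 tested genes of conjugate transport and breakdown, 5 rose and 3 fell. The transporters ABCC3 and ABCC4, of the family that moves glutathione conjugates into the vacuole, led the rise. ABCC3 averaged 301 ± 22.6 normalized CPM in libraries labelled dyw2 homozygous, against 39.7 ± 12.0 in those labelled dyw2 heterozygous (SD, n = 3 each; edgeR adjusted p = 6.25e-06). ABCC4 averaged 38.6 ± 2.0 in libraries labelled dyw2 homozygous, against 5.16 ± 1.76 in those labelled dyw2 heterozygous (SD, n = 3 each; edgeR adjusted p = 1.92e-05). GGT1, an apoplastic enzyme that degrades glutathione and its conjugates, fell by 1.62 on the log2 scale (SE 0.18, edgeR adjusted p = 1.29e-05). Of 8 glutathione peroxidase genes 2 rose, 1 fell and 5 were not called. The one that fell was GPX1, a plastid enzyme, at 48.1 ± 9.15 normalized CPM in libraries labelled dyw2 homozygous, against 421 ± 66.4 in those labelled dyw2 heterozygous (SD, n = 3 each; edgeR adjusted p = 9.12e-07).

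Of 11 genes for TGA factors and SCL14, 4 rose and none fell (edgeR, at an adjusted p under 0.05), against 30.1% higher and 32.8% lower among all genes, with SCL14 higher by 1.16 (SE 0.14, edgeR adjusted p = 2.60e-05) and TGA1 by 1.02 (SE 0.18, edgeR adjusted p = 0.000408) on the log2 scale. Of 11 genes known to be induced with these transferases by xenobiotics, 8 rose and 2 fell, the pair OPR1 and OPR2, which encode oxophytodienoate reductases. UGT73B4, a glucosyltransferase, averaged 17.7 ± 1.33 normalized CPM in libraries labelled dyw2 homozygous, against 0.0601 ± 0.0298 in those labelled dyw2 heterozygous (SD, n = 3 each; edgeR adjusted p = 4.66e-07). UGT74E2, which glucosylates the auxin indole-3-butyric acid, averaged 56.4 ± 6.43 in libraries labelled dyw2 homozygous, against 0.361 ± 0.188 in those labelled dyw2 heterozygous (SD, n = 3 each; edgeR adjusted p = 1.33e-07).

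In the nuwa comparison none of the 50 tested genes of the other 5 lists was called (edgeR; 10 at an unadjusted p under 0.05; DESeq2 called 2). Over all 21213 genes tested, edgeR put 4034 at an unadjusted p under 0.05 for nuwa. DESeq2 called 848 of 22268 genes higher and 573 lower. Of the 11 xenobiotic companions 2 rose, against 1.54% of all genes called higher by edgeR. UGT74E2 had 2.02, 3.42 and 2.78 normalized CPM in libraries labelled nuwa homozygous, against 0.440, 0.760 and 0.522 in those labelled nuwa heterozygous. Its groups did not overlap, with a log2 fold change of 2.22 (SE 0.32, edgeR adjusted p = 0.00697), and it stayed called without any 1 library. It was not called with only the nuwa groups in the fit (edgeR adjusted p = 0.0858) or with the groups of the genotype field (edgeR adjusted p = 0.144). UGT73C5, which glucosylates brassinosteroids and a fungal toxin, averaged 14.1 ± 1.93 in libraries labelled nuwa homozygous and 7.01 ± 2.51 in those labelled nuwa heterozygous (SD, n = 3 each; edgeR adjusted p = 0.0447). Its call was lost without nuwa homozygous replicate 1 or 2, nuwa heterozygous replicate 1 or 3, dyw2 heterozygous replicate 2 or 3, any 1 of the dyw2 homozygous libraries, with the flower bud score as covariate, with only the nuwa groups in the fit, or with the groups of the genotype field, where its edgeR adjusted p was between 0.0518 and 0.190.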

How the data were processed

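The members and gene lists were chosen with earlier results of these data known. The authors deposited, per the file headers, raw counts of reads per gene model after removal of reads with equally good alignments elsewhere (2.54 to 6.06% of mapped reads). TopHat2, Bowtie2 and TAIR10 are named without versions in the submitters' processing notes. The sources used here do not say if the strand entered the counting. Groups follow the titles. Depth was 13329334 to 97804029 counts per library. Gene names, positions and sequences came from RefSeq's TAIR10.1 annotation, which matched 32835 of 33602 gene models and all 40 members.

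All genes were tested with edgeR 4.0.16 (R 4.3.3; quasi-likelihood F-test, TMM, filterByExpr with minimum count 10 and minimum total 15, 1 model of 4 groups, 8 residual degrees of freedom, Benjamini-Hochberg over 21213 genes, called at an adjusted p under 0.05). Each SE is the log2 fold change, without its sign, divided by the square root of the edgeR F statistic. Near 0 counts it depends on the prior count, as the fold change does. The series text calls the 3 libraries of a group biological replicates but does not say if each came from other plants. If not, p-values reflect the spread among these libraries alone, possibly technical. No pair of replicates matched within sampling noise (chi-square per degree of freedom 17.3 to 124).

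Named members are the 10 largest called rises and 6 largest called falls for dyw2, the 5 smallest p among called differences between mutants, and the 3 tau and 3 phi genes of highest mean level per kilobase. Nuwa gave no called member to name. Of each list, up to 2 called genes per direction were eligible. Other members are named because all 40 are accounted for. Protein sequences were not used here, so pairs were compared by coding sequence. Sums over a class, ratios within a pair and motif counts were given without a test. For GSTU12, GSTU15 and GSTU25, called members with 1 to 3 counts over the dyw2 heterozygous group, a ratio of pooled counts per library size is given with its exact 95% interval.

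On simulated counts the edgeR step recovered 45% of genes changed 2-fold and 91% of those changed 4-fold for dyw2 (4 of 140 calls false, 20675 genes). For nuwa it recovered 47% and 86% (3 of 136 false, 20632 genes). The changed genes were few and none was of low level, and all others were left flat. In the real dyw2 comparison 62.9% of genes were called, so these figures do not carry over to it or to members of low level. Alternatives were DESeq2 1.42.0 and its size factors, nuclear genes only, no filter or a minimum count of 50, thinning to 13329334 counts, a flower bud score as covariate, a replicate block, only the compared groups, the genotype field's groups, and leaving out libraries.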

Additional observations from a re-analysis of the deposited data

Results flagged for a closer look

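For 28 members the dyw2 and nuwa effects differed by edgeR's test of the difference itself (adjusted p under 0.05). The values below are log2 differences, dyw2 effect minus nuwa effect. Among the genes lower in the dyw2 comparison, the difference was -4.43 for GSTU23, -3.31 for GSTU17, -3.19 for GSTU20, -2.71 for GSTU26, -2.39 for GSTU18, -2.35 for GSTF11, -1.88 for GSTU13, -1.84 for GSTF8, -1.71 for GSTF4, -1.01 for GSTU5 and -0.69 for GSTU27. Among the tau genes higher in that comparison, it was 10.45 for GSTU3, 8.49 for GSTU12, 6.52 for GSTU2, 6.14 for GSTU25, 6.02 for GSTU9, 5.67 for GSTU10, 4.81 for GSTU11, 4.75 for GSTU4, 4.28 for GSTU24, 4.17 for GSTU8, 3.94 for GSTU1 and 1.10 for GSTU19. Among the phi genes higher in that comparison, it was 5.77 for GSTF3, 3.95 for GSTF5, 3.56 for GSTF7, 2.92 for GSTF2 and 2.59 for GSTF6. Where a group had 3 counts or fewer (GSTU3, GSTU12 and GSTU25), the fitted value depends on the prior count and is no bound. GSTU2, GSTU12 and GSTU25 passed the filter on low counts through the dyw2 homozygous group alone, which fixed their direction. GSTU3, GSTU11 and GSTF5 would not have passed without that group either.

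Single libraries moved several of these differences by over 1.5 times when taken as fold changes, not on the log2 scale. Without nuwa heterozygous replicate 2 the difference was 6.51 for GSTU3, 5.27 for GSTU2, 4.68 for GSTU9, 4.57 for GSTU25, 4.41 for GSTU10, 3.96 for GSTF3, 3.07 for GSTU8, 2.95 for GSTU24, 2.66 for GSTU1, 2.51 for GSTU4, 2.47 for GSTF7, 1.76 for GSTF2 and 1.67 for GSTF6, and GSTU3 and GSTU25 were no longer called (edgeR adjusted p = 0.175 and 0.213). Without nuwa homozygous replicate 3 it was 11.27 for GSTU3, 10.60 for GSTU12, 7.19 for GSTU25, 5.37 for GSTU4 and 4.28 for GSTF7. Without nuwa homozygous replicate 1 it was 9.85 for GSTU3, 5.89 for GSTU2 and 5.52 for GSTU25. Without dyw2 heterozygous replicate 1 it was 10.89 for GSTU12 and 8.54 for GSTU25. Other single libraries gave 8.03 for GSTU2 (without dyw2 heterozygous replicate 2), 4.92 for GSTU24 (without dyw2 heterozygous replicate 3) and -5.95 for GSTU23 (without dyw2 homozygous replicate 2). GSTU27 lost its call without dyw2 heterozygous replicate 2 (edgeR adjusted p = 0.0503).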

How the results depend on the processing

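With groups from the genotype field, 0 members were called higher or lower for dyw2 or for the difference between the mutants (edgeR; 18 of 36 at an unadjusted p under 0.05 for dyw2 and 0 for the difference). Leaving out 1 library at a time gave 17 to 19 members higher and 11 to 12 lower for dyw2, 0 to 1 higher and 0 to 0 lower for nuwa, 26 to 28 for the difference and 0 to 0 between the heterozygous groups. The 1 for nuwa is GSTU9, called without nuwa heterozygous replicate 2. As CPM of nuclear reads, class sums were 2453 (tau) and 14924 (phi) for dyw2 homozygous, 1119 (tau) and 1518 (phi) for dyw2 heterozygous, 1314 (tau) and 1645 (phi) for nuwa homozygous, and 1144 (tau) and 1198 (phi) for nuwa heterozygous libraries, because plastid reads leave the total. Thinned to the shallowest depth, the difference was no longer called for GSTU2, GSTU12 and GSTU25 (edgeR adjusted p = 0.907, 0.9998 and 0.9998). With a flower bud score in the model, GSTU16 was called lower for dyw2 (-0.54, edgeR adjusted p = 0.0490). GSTU28 was not called for dyw2 under DESeq2 (adjusted p = 0.0997), its size factors, no filter, the flower bud covariate, thinning, only the compared groups, or without both libraries with disagreeing labels (edgeR adjusted p between 0.0522 and 0.749 in these). GSTU7 was called without both disputed libraries (1.12, edgeR adjusted p = 0.0294). With the replicate number as a block, 18 members were called higher and 11 lower for dyw2: GSTU28 lost its call (edgeR adjusted p = 0.0700) and no other call changed. Same-numbered deviations correlated at 0.0895, 0.0104 and 0.00648 for dyw2 and at -0.00517, 0.0573 and 0.167 for nuwa. Between different numbers the correlations were -0.0756 to 0.0682 for dyw2 and -0.236 to 0.184 for nuwa. With 3 libraries a group, these values cannot settle whether the numbers pair the samples. Low counts limit GSTU12, GSTU15, GSTU25, GSTU23 and GSTU2, and the 4 untested members.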
